A study of Mus musculus with 28 samples.

Results

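The gasdermin C family was examined in colon organoids of the mouse. Its members were the rows of the count table whose symbol starts with *Gsdmc*, which were *Gsdmc2*, *Gsdmc3*, *Gsdmc4*, *Gsdmcl2* and *Gsdmcl-ps*, together with *Gsdmd* as a gasdermin outside the family, 6 of the 13519 genes counted. The family was chosen by its measured change, the lower counts of the *Gsdmc* rows after 4-hydroxytamoxifen (4-HT), above all in organoids with the *Braf* allele. The 4-HT changes of the members and their difference with the *Braf* allele are therefore given as a description. Where the number of members past the threshold of the fit over all genes is given for them, it stands beside the share of all genes and carries no support, since the choice used these values. Tested were the difference of the 4-HT change with the *Trp53* allele and the differences between genotypes in the EtOH samples, which share samples with the changes that led to the choice, and the genes of the surrounding pathway.

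The organoids were grown from colon epithelium of C57BL/6N mice and sequenced as bulk mRNA. Every donor, those of the control samples included, carried the VillinCreERT2 transgene, in which the promoter of the gut epithelial gene *Villin* drives a recombinase that 4-HT switches on, and the allele APCflox/flox. AC organoids carried nothing else, PAC organoids also the mutant p53 allele Trp53LSL-R172H/+, BAC organoids also the oncogenic allele BraffloxV600E/+, and BPAC organoids both. The 28 samples came from 14 cultures. AC had 1 donor and each other genotype 2, 7 donors in all, and every donor gave a pair of cultures, called duplicates 1 and 2. Each culture was split into a sample that received the vehicle ethanol (EtOH) and a sample that received 3.5 µM 4-HT for 24 hours, and RNA was taken 3 days later, per the labels. The 2 cultures of a donor share an animal, so that the spread between cultures is in part that of repeat cultures. Exposure to 4-HT and recombination of the alleles cannot be told apart in this design, since no organoids without the recombinase were included, and no organoids had the *Braf* or *Trp53* allele without the *Apc* allele.

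Gasdermins are proteins held inactive by their own C-terminal domain. When a protease cuts the linker between the domains, the N-terminal part inserts into membranes and forms pores, through which interleukins leave the cell and which can end in pyroptosis, a lytic death. *Gsdmd* is the substrate of the inflammatory caspases and is expressed in many tissues, whereas the gasdermin C genes, which the mouse carries in several copies, are known from the gut epithelium, where type 2 cytokines of the response to worms induce them.

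The annotation of GRCm38 lists 7 genes with *Gsdmc* names side by side on chromosome 15, within the 149.699 kb from 63775968 to 63925666, of which 4 are protein coding and 3 are pseudogenes. Counted were *Gsdmc2* (ENSMUSG00000056293, minus strand, 63824346 to 63845177), *Gsdmc3* (ENSMUSG00000055827, minus strand, 63857724 to 63878558), *Gsdmcl2* (ENSMUSG00000093867, plus strand, 63880707 to 63890512), *Gsdmc4* (ENSMUSG00000055748, minus strand, 63891264 to 63912297) and *Gsdmcl-ps* (ENSMUSG00000100127, plus strand, 63914448 to 63925666). *Gsdmcl2* and *Gsdmcl-ps* are annotated as pseudogenes, and the coding gene *Gsdmc* and the pseudogene *Gsdmcl1* had no row in the table, which holds genes above 1 CPM (counts per 1000000 counts of a sample) in at least 2 samples. The plan of the cluster repeats itself, with a coding gene on the minus strand and a pseudogene on the plus strand whose starts lie 2.132 kb apart for *Gsdmc2* and *Gsdmcl1*, 2.149 kb for *Gsdmc3* and *Gsdmcl2*, and 2.151 kb for *Gsdmc4* and *Gsdmcl-ps*. *Gsdmd* (ENSMUSG00000022575, plus strand, 75862327 to 75867408) lies on the same chromosome, 11.936661 Mb from the cluster.

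The coding sequences are near copies, and this limits how far a read can tell the members apart. *Gsdmc2* and *Gsdmc3* shared 97.1% of aligned coding bases (1398 of 1440), and each of them shared 93.8% with *Gsdmc4* (1345 of 1434), while *Gsdmd* shared between 57.1% and 59.6% with the gasdermin C genes. Of 647 windows of 75 coding bases, the 3 genes differed at a median of 2 positions, and 193 windows were the same in all 3. The start of the coding sequence in exon 1, on the minus strand, is shown because a read from it fits 3 genes at once. It lies at chr15:63835869-63835943 for *Gsdmc2*, at chr15:63869223-63869297 for *Gsdmc3* and at chr15:63902856-63902930 for *Gsdmc4* (GRCm38), and a single line holds all 3:
Gsdmc2, Gsdmc3 and Gsdmc4, first 75 coding bases: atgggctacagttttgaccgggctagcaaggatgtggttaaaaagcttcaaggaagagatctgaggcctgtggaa

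The window in which the 3 genes differ most lies in exon 8 and is shown because reads from it can be assigned. It covers chr15:63826834-63826908 for *Gsdmc2*, chr15:63860264-63860338 for *Gsdmc3* and chr15:63893781-63893855 for *Gsdmc4*, again on the minus strand, and 16 of its positions differ. Capitals mark the positions at which the 3 genes are not all alike:
Gsdmc2: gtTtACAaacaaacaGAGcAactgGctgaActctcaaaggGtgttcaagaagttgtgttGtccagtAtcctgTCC
Gsdmc3: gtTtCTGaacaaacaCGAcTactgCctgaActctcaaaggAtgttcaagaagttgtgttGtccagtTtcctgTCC
Gsdmc4: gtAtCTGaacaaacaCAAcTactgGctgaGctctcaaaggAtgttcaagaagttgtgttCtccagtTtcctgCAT

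Over whole transcripts, 51.3% of the exonic windows of 50 bases in *Gsdmc2* also occurred in another gene, 46.0% in *Gsdmc3*, 39.0% in *Gsdmc4*, 22.5% in *Gsdmcl2* and 32.1% in *Gsdmcl-ps*. With windows of 100 bases the shares fell to 28.6%, 28.4%, 20.2%, 11.0% and 14.8%. For *Gsdmd* and for the related *Gsdme* the share was 0% at both lengths. The length of the reads, the counting program and its treatment of reads that fit several genes are not given in the sources used here. The split of counts among the gasdermin C rows is therefore uncertain, and their sum is given as well.

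**Figure D1:**
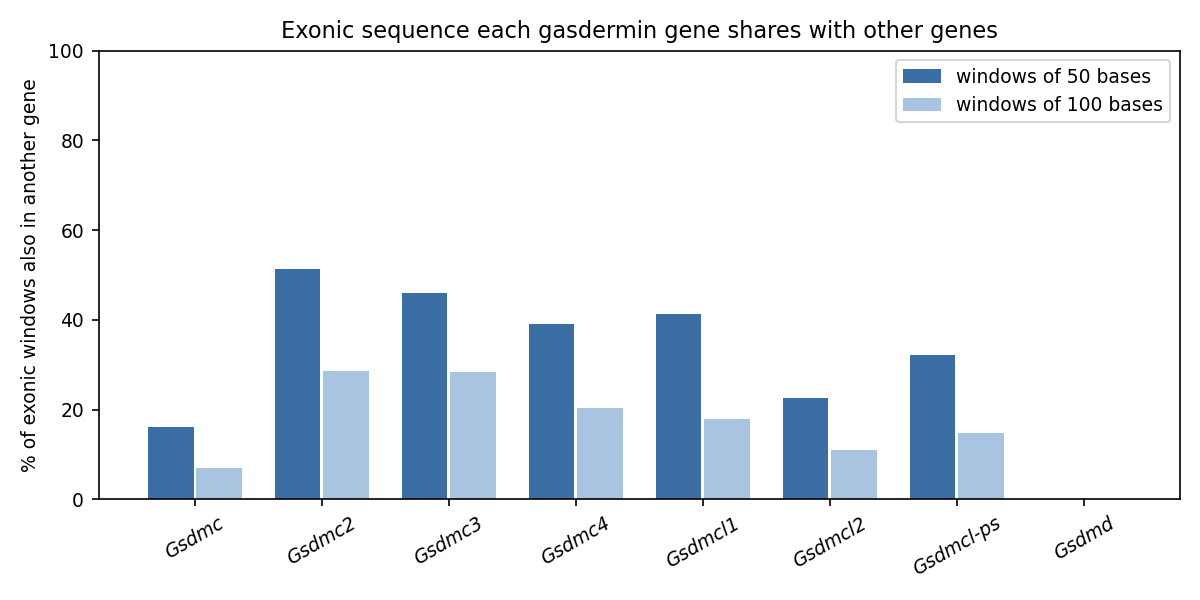
Share of exonic windows of 50 and 100 bases (percent, GRCm38) that also occur in another annotated gene, for each gasdermin. Between 22.5% and 51.3% of the 50-base windows of the counted gasdermin C genes were shared, against 0% for Gsdmd.

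Sequencing depth ranged from 20577276 to 40068718 counts per sample. The 2 libraries labelled PAC 4-HT duplicate 1, from donors 1 and 2, stood apart. They were the closest pair among 378 pairs of samples, with a root mean square difference of 0.204 on the log2 CPM scale against 0.346 for the next pair. Both held the female transcript *Xist* (25.2 and 22.0 CPM) and Y-linked transcripts (55.0 and 53.5 CPM), whereas their EtOH partners held either Y-linked reads (133.6 CPM in donor 1, with *Xist* at 0.251 CPM) or *Xist* (59.9 CPM in donor 2, with Y-linked reads at 0 CPM). The calls of the members and of the gene lists in PAC, the *Trp53* and EtOH contrasts of the members, and the *Braf* contrast of its called members are given with and without these cultures. Other results that use PAC, among them the *Braf* contrast of other genes and the ratio of summed counts in PAC, are given only with them. All 7 epithelial markers were counted, with summed levels of 16979 to 27583 CPM with EtOH and 15276 to 20823 CPM with 4-HT. By edgeR at an adjusted p of 0.01, *Epcam* and *Vil1* of these were lower after 4-HT in PAC, BAC and BPAC and *Cdh1* in BAC and BPAC, beside 12.2%, 21.5% and 23.0% of all genes called lower in PAC, BAC and BPAC, with 0 called in PAC without both duplicate 1 cultures. Of 12 markers of immune cells, vessels and fibroblasts only 4 were counted, with summed levels of 5.63 to 9.99 CPM. The gene-level count of *Apc* rose in every genotype, by 0.67 to 0.92 on the log2 scale, and does not show whether the floxed exon was lost.

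In the EtOH-treated samples *Gsdmd* had the highest median of the 6 rows, and *Gsdmc4* the highest of the gasdermin C rows, although *Gsdmc2* lay above it in both samples of PAC donor 1. Per length of exon, as CPM per kilobase (RPKM), the median level over the 14 EtOH samples was 39.7 for *Gsdmd* (range 27.2 to 48.0), 7.28 for *Gsdmc4* (1.98 to 19.3), 2.64 for *Gsdmc2* (0.987 to 4.67), 0.796 for *Gsdmc3* (0.189 to 1.26), 0.452 for *Gsdmcl2* (0.0662 to 1.09) and 0.197 for *Gsdmcl-ps* (0 to 0.630). *Gsdmd* stood clear of the others, and the ranges of every other pair of neighbours in this order overlapped. After 4-HT the median levels were 33.9 RPKM for *Gsdmd* (26.4 to 41.6), 0.757 for *Gsdmc4* (0.262 to 4.35), 0.290 for *Gsdmc2* (0.0666 to 1.06), 0.0706 for *Gsdmc3* (0 to 0.216), 0.0537 for *Gsdmcl-ps* (0 to 0.256) and 0.0152 for *Gsdmcl2* (0 to 0.302). *Gsdmc3*, *Gsdmcl2* and *Gsdmcl-ps* were then at or below 3 counts in 6, 9 and 6 of the 14 samples, respectively, which is the floor used here.

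**Figure D2:**
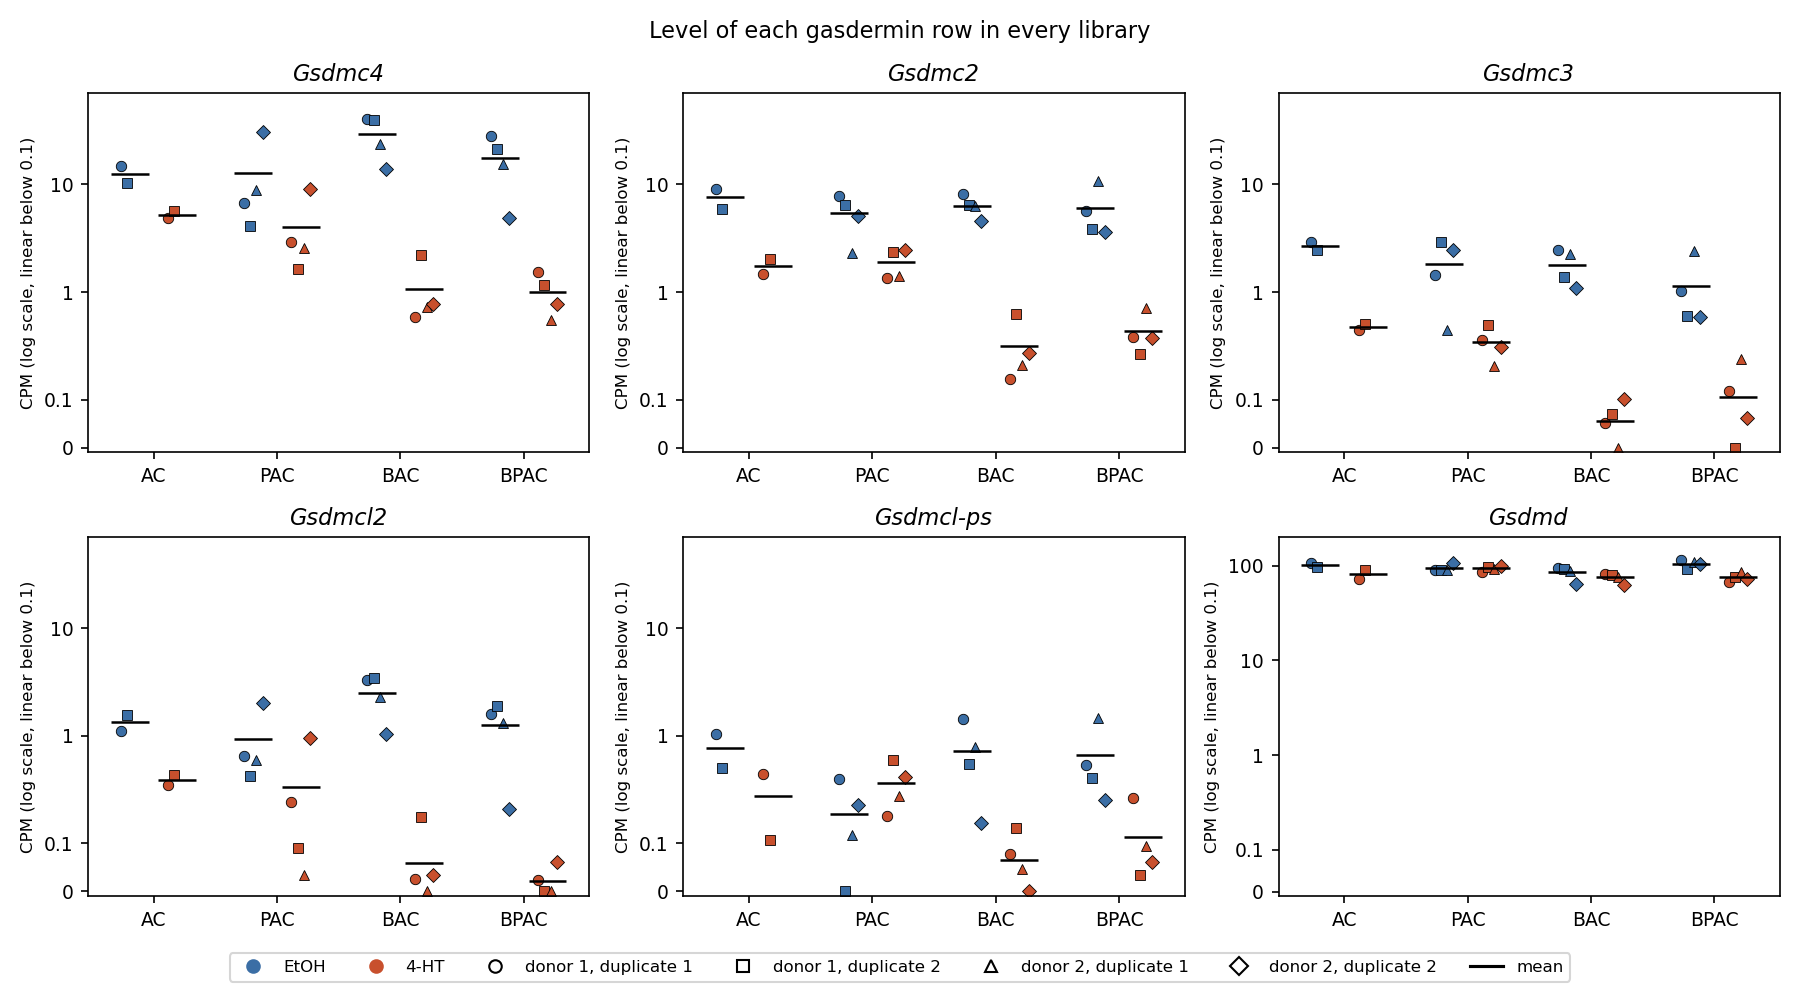
Level of each gasdermin row (CPM, log axis above 0.1 and linear below) in each of the 28 samples by genotype and treatment, with 1 point per sample. In AC and BAC the 4-HT samples lie below the EtOH samples for every gasdermin C row, and in BPAC for all but Gsdmcl-ps, while the PAC groups overlap. Gsdmd stays between 62.8 and 114 CPM, with its 4-HT samples also below those of EtOH in AC and BPAC.

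*Gsdmc4*, the gasdermin C gene with the highest median level, was lower after 4-HT in all 14 cultures. In AC the EtOH samples held 14.9 and 10.3 CPM and the 4-HT samples 4.84 and 5.65 CPM. In PAC the levels were 6.73, 4.13, 8.98 and 30.8 CPM with EtOH and 2.93, 1.64, 2.56 and 9.07 CPM with 4-HT (donor 1 duplicates 1 and 2, then donor 2). Donor 2 duplicate 2 was the highest PAC culture with both treatments, and its 4-HT sample lay above 3 EtOH samples, so that the PAC groups overlapped. In BAC the levels were 40.3, 39.5, 23.6 and 13.9 CPM with EtOH and 0.591, 2.21, 0.732 and 0.781 CPM with 4-HT. In BPAC they were 28.4, 21.2, 15.5 and 4.92 CPM with EtOH and 1.52, 1.17, 0.547 and 0.777 CPM with 4-HT. Every 4-HT sample of BAC and BPAC lay below every EtOH sample of its genotype. The mean went from 29.3 ± 12.8 to 1.08 ± 0.756 CPM in BAC and from 17.5 ± 9.91 to 1.00 ± 0.431 CPM in BPAC (SD, n = 4), against 12.7 ± 12.3 to 4.05 ± 3.39 CPM in PAC (SD, n = 4) and 12.6 ± 3.20 to 5.24 ± 0.568 CPM in AC (SD, n = 2). The fitted log2 fold changes were −4.80 ± 0.68 in BAC, −4.12 ± 0.66 in BPAC, −1.64 ± 0.59 in PAC and −1.27 ± 0.82 in AC (SE, here and below).

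*Gsdmc2*, the next in level, took the same course. In AC it fell from 9.17 and 5.97 CPM to 1.48 and 2.01 CPM. In PAC the levels were 7.88, 6.51, 2.28 and 5.12 CPM with EtOH and 1.36, 2.36, 1.42 and 2.46 CPM with 4-HT. The low EtOH sample of PAC donor 2, duplicate 1, lay within the range of the 4-HT samples. In BAC the levels were 8.17, 6.50, 6.25 and 4.55 CPM with EtOH and 0.154, 0.630, 0.212 and 0.272 CPM with 4-HT. In BPAC they were 5.73, 3.88, 10.8 and 3.61 CPM with EtOH and 0.387, 0.267, 0.714 and 0.373 CPM with 4-HT. The groups did not overlap in BAC and BPAC, where the 4-HT samples held between 6 and 30 counts each. The log2 fold changes were −4.37 ± 0.46 in BAC, −3.74 ± 0.44 in BPAC, −1.52 ± 0.39 in PAC and −2.12 ± 0.56 in AC.

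*Gsdmc3*, the near copy of *Gsdmc2*, was low to begin with, at 11 to 73 counts per EtOH sample. In the 4-HT samples it held 14 and 14 counts in AC, 12, 11, 6 and 9 in PAC, 2, 2, 0 and 3 in BAC, and 5, 0, 10 and 2 in BPAC. All BAC samples were thus at or below the floor after 4-HT. Summed over the 4 BAC cultures, 174 counts with EtOH stood against 7 with 4-HT, a depth-adjusted ratio of 36.2 with a 95% interval of 17.2 to 91.3. This interval, like the others below, covers counting error only. The log2 fold changes were −5.02 ± 0.72 in BAC, −3.29 ± 0.65 in BPAC, −2.40 ± 0.58 in PAC and −2.49 ± 0.78 in AC, and that of BAC depends on the prior count.

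Of the transcribed pseudogenes, *Gsdmcl2* followed the coding genes and *Gsdmcl-ps* did so in part. *Gsdmcl2* held 81, 95, 55 and 20 counts with EtOH and 1, 5, 0 and 1 with 4-HT in BAC, and 30, 47, 28 and 5 with EtOH and 1, 0, 0 and 2 with 4-HT in BPAC. The depth-adjusted ratio of summed counts was 52.2 in BAC (95% interval 25.0 to 131) and 60.3 in BPAC (20.1 to 297). In PAC *Gsdmcl2* held 18, 9, 15 and 53 counts with EtOH and 8, 2, 1 and 28 with 4-HT, and in AC 28 and 37 with EtOH and 11 and 12 with 4-HT. Every culture was lower after 4-HT, and the PAC groups overlapped because of donor 2 duplicate 2. *Gsdmcl-ps* held between 0 and 35 counts in any sample. It was lower after 4-HT in all AC, BAC and BPAC cultures, while in PAC it held 11, 0, 3 and 6 counts with EtOH and 6, 13, 8 and 12 with 4-HT, so that 3 of the 4 PAC cultures were higher. The log2 fold changes of *Gsdmcl2* were −5.49 ± 0.89 in BAC, −5.64 ± 1.01 in BPAC, −1.45 ± 0.72 in PAC and −1.77 ± 0.99 in AC, those of *Gsdmcl-ps* −3.42 ± 0.82, −2.41 ± 0.75, 0.86 ± 0.77 and −1.45 ± 0.96, and at such counts they depend on the prior count. Of the 70 changes of gasdermin C rows by culture, 67 were below 0, and the exceptions were these 3.

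*Gsdmd*, which shares no exonic window with the family, fell by at most 0.47 on the log2 scale in the fit of a genotype, with 4-HT levels below those of EtOH in 12 of 14 cultures. In AC its levels were 107 and 96.4 CPM with EtOH and 72.7 and 89.8 CPM with 4-HT. In PAC they were 90.9, 89.1, 90.9 and 107 CPM with EtOH and 86.8, 96.9, 91.8 and 98.8 CPM with 4-HT. In BAC they were 95.4, 91.7, 88.8 and 64.7 CPM with EtOH and 81.3, 79.7, 76.8 and 62.8 CPM with 4-HT. The PAC and BAC groups overlapped, whereas in AC both 4-HT samples lay below both EtOH samples. In BPAC the levels of 114, 93.2, 108 and 104 CPM with EtOH all lay above the 68.0, 76.7, 86.0 and 72.1 CPM with 4-HT. The log2 fold changes were −0.47 ± 0.11 in BPAC, −0.18 ± 0.11 in BAC, −0.01 ± 0.11 in PAC and −0.32 ± 0.16 in AC. These small values depend on the scale, and with library size alone in place of TMM (trimmed mean of M values) they were −0.26, −0.02, 0.21 and −0.10. Summed into 1 row, the gasdermin C rows went from a mean of 40.7 to 1.57 CPM in BAC, from 26.6 to 1.68 CPM in BPAC, from 21.1 to 6.99 CPM in PAC and from 25.0 to 8.12 CPM in AC. The ratios of summed counts were 28.8 in BAC (95% interval 25.0 to 33.3), 15.0 in BPAC (13.2 to 17.2), 3.04 in PAC (2.80 to 3.31) and 3.10 in AC (2.79 to 3.45), and a read moved from one counted member to another does not change these sums.

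**Figure D3:**
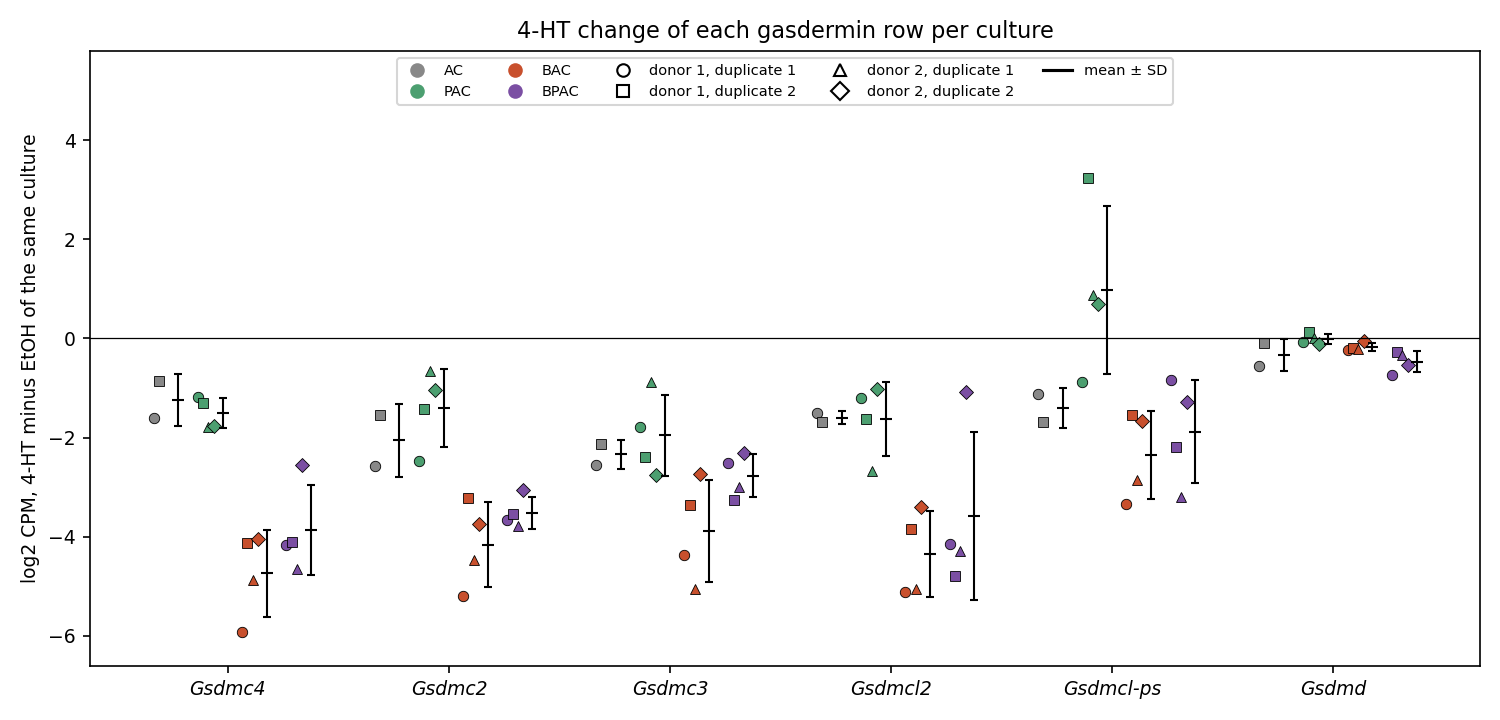
Change from EtOH to 4-HT (log2 CPM, prior count 2) of each gasdermin row in each culture, 1 point per culture, by genotype. Gsdmc4 lies between −5.93 and −2.56 in the 8 cultures with the Braf allele and between −1.78 and −0.87 in the 6 without.

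At an adjusted p of 0.01, 0 gasdermin C rows were called lower in AC by edgeR (1 by limma-voom and 1 by DESeq2, and 2 had an unadjusted p under 0.05), where 4.25% of all genes were called lower and 3.00% higher. In PAC, *Gsdmc2* and *Gsdmc3* were called lower, beside 12.2% of all genes called lower and 11.2% called higher. All 5 rows were called lower in BAC, beside 21.5% of genes lower and 20.3% higher, and all 5 together with *Gsdmd* in BPAC, beside 23.0% lower and 22.0% higher. The median log2 fold change of the 5 rows was −4.80 in BAC, −3.74 in BPAC, −1.77 in AC and −1.52 in PAC, beside medians over all genes of −0.04, −0.04, 0.01 and −0.03. The 4-HT samples all lay below the EtOH samples for all 6 rows in AC, beside 28.5% of all genes, for none in PAC (16.1%), for the 5 gasdermin C rows in BAC (26.4%) and for *Gsdmc2*, *Gsdmc3*, *Gsdmc4*, *Gsdmcl2* and *Gsdmd* in BPAC (22.4%). These counts come from the contrasts that led to the choice of the family, and nothing is read from them. With library size alone the median over all genes moved to 0.18 in BPAC, 0.13 in BAC, 0.20 in PAC and 0.23 in AC, and the share of lower calls among called genes went from 51.1%, 51.4%, 52.3% and 58.6% to 32.0%, 34.7%, 17.9% and 16.7%. On that scale *Gsdmc4* stood at −4.64 in BAC and −3.90 in BPAC, the same gasdermin C rows were called but for *Gsdmcl-ps* in BPAC, and *Gsdmd* was not called in BPAC. Without both PAC duplicate 1 cultures, 0 rows were called in PAC (2 at an unadjusted p under 0.05), with *Gsdmc2* at −1.26 ± 0.49 and *Gsdmc3* at −2.75 ± 0.74, while the genes called in PAC went from 3166 to 48 in all. With the culture as a block, *Gsdmc2* (−2.10 ± 0.42) and *Gsdmc3* (−2.49 ± 0.54) were called in AC, and *Gsdmc4* (−1.55 ± 0.27) in PAC beside the other 2, where this fit called 8.99% of all genes lower in AC and 18.4% in PAC. In PAC this pairing is in doubt for duplicate 1, whose 4-HT libraries held both *Xist* and Y-linked transcripts, unlike their EtOH partners. The block was not fitted without those cultures.

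Set side by side, the changes were larger in organoids with the *Braf* allele. For *Gsdmc4* the change by culture was −5.93, −4.12, −4.88 and −4.04 in BAC and −4.16, −4.10, −4.66 and −2.56 in BPAC, against −1.18, −1.30, −1.78 and −1.76 in PAC and −1.60 and −0.87 in AC. For *Gsdmc2* it was −5.19, −3.23, −4.48 and −3.75 in BAC and −3.66, −3.55, −3.79 and −3.05 in BPAC, against −2.48, −1.43, −0.66 and −1.03 in PAC and −2.58 and −1.54 in AC. For these 2 genes every culture with the allele lay below every culture without it, which held for 4.47% of all genes. The groups overlapped for *Gsdmc3* (−3.32 ± 0.94 with and −2.08 ± 0.68 without the allele), for *Gsdmcl2* (−3.96 ± 1.31 and −1.62 ± 0.58), for *Gsdmcl-ps* (−2.12 ± 0.93 and 0.18 ± 1.80) and for *Gsdmd* (−0.32 ± 0.22 and −0.12 ± 0.23; SD, n = 8 and 6). For *Gsdmcl2* the overlap came from 1 BPAC culture, donor 2 duplicate 2, which started from 5 counts.

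The fitted difference between the mean change of BAC and BPAC and that of AC and PAC was −3.01 ± 0.68 for *Gsdmc4*, −2.24 ± 0.46 for *Gsdmc2*, −1.70 ± 0.69 for *Gsdmc3*, −3.96 ± 0.95 for *Gsdmcl2*, −2.61 ± 0.84 for *Gsdmcl-ps* and −0.16 ± 0.12 for *Gsdmd* on the log2 scale. *Gsdmc2*, *Gsdmc4* and *Gsdmcl2* were past the threshold, beside 3.55% of genes called lower and 3.05% called higher, in a contrast that the choice of the family used. Their values without both PAC duplicate 1 cultures were −2.37 ± 0.45, −2.98 ± 0.74 and −4.09 ± 0.97, and *Gsdmc4* was then just above the adjusted p threshold and not called. The number called rested on single cultures, at 1 without AC duplicate 1, 0 without AC duplicate 2 and 1 without BAC donor 1 duplicate 1. The fit takes repeat cultures of a donor as independent, and the number was 0 with the counts of each donor summed and 0 in duplicate 2 alone. Within duplicate 1 alone the difference was −3.38 for *Gsdmc4* and −2.38 for *Gsdmc2*, and within duplicate 2 alone −2.40 and −2.06. The low rows varied more, with −1.99 and −0.49 for *Gsdmc3*, −2.86 and −1.83 for *Gsdmcl2* and −2.18 and −2.41 for *Gsdmcl-ps* in duplicates 1 and 2, and *Gsdmd* stood at −0.18 and −0.23.

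Markers of surface colonocytes, the absorptive cells at the top of the crypt, moved in the same samples. Of the 12 markers, among them *Krt20*, *Car1* and *Guca2a*, 12 were lower after 4-HT in BPAC, 11 in BAC, 8 in PAC and 7 in AC by edgeR at an adjusted p of 0.01, beside 23.0%, 21.5%, 12.2% and 4.25% of all genes. Their summed level was 19625 to 28955 CPM with EtOH and, with 4-HT, 7270 to 7581 CPM in AC, 8385 to 12671 CPM in PAC, 6287 to 8826 CPM in BAC and 4357 to 10324 CPM in BPAC. These 4-HT ranges overlapped between organoids that carried the *Braf* allele and those that did not. In the *Braf* contrast 1 of the 12, *Guca2a*, was called lower, beside 3.55% of all genes lower and 3.05% higher, and the median over the list was −0.49. Of the 5 stem cell markers counted, 2, 4, 3 and 5 were higher in AC, PAC, BAC and BPAC, beside 3.00%, 11.2%, 20.3% and 22.0% of all genes, and their sum went from 393 to 793 CPM with EtOH to 809 to 1358 CPM with 4-HT. Without both PAC duplicate 1 cultures the PAC calls fell to 0 of the 12 surface markers by edgeR (9 lower at an unadjusted p under 0.05) and to 1 of the 5 stem cell markers, with medians of −1.08 and 0.86 against −1.29 and 1.36 as reported. Among 7 goblet cell markers *Tff3*, *Fcgbp* and *Zg16* were lower and *Agr2* was higher in both BAC and BPAC, beside the shares of all genes given above, and *Spink4* was higher in PAC (not without both duplicate 1 cultures). The *Braf* contrast called *Tff3* lower and *Agr2* higher, beside 3.55% of all genes lower and 3.05% higher, with a median of −0.59 over the list. In bulk RNA fewer cells of a type and less RNA per cell cannot be told apart, and the part of these markers in the gasdermin values was not tested.

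The split between *Gsdmc4* and *Gsdmc2* differed between donors. *Gsdmc4* took 61.9% (95% exact binomial interval 57.8 to 65.8) and 63.4% (58.4 to 68.2) of the summed *Gsdmc4* and *Gsdmc2* counts in the 2 EtOH cultures of AC. In PAC it took 46.1% (41.2 to 51.1) and 38.8% (32.4 to 45.6) in donor 1 but 79.7% (74.5 to 84.3) and 85.8% (83.4 to 87.9) in donor 2. In BPAC it took 83.2% and 84.6% in donor 1 but 58.9% (54.7 to 63.0) and 57.6% (50.5 to 64.5) in donor 2. In BAC it took 83.1% (80.9 to 85.2) and 85.9% (83.8 to 87.7) in donor 1 and 79.1% (75.9 to 82.0) and 75.4% (70.5 to 79.7) in donor 2. The 2 cultures of a donor thus lay closer to each other than to those of the other donor in PAC and BPAC. The values of BAC had the same order, but the distance between donors was smallest there and the intervals of duplicate 1 overlapped, so that its order is uncertain. After 4-HT the share was 76.6% and 73.7% in AC, 74.2% to 79.3% in BAC, 79.7% and 81.4% in BPAC donor 1, and 43.4% (29.8 to 57.7) and 67.6% (50.2 to 82.0) in BPAC donor 2, whose samples held few counts. In PAC duplicate 2 it stayed with the donor, at 40.9% (30.5 to 51.9) in donor 1 and 78.6% (73.9 to 82.9) in donor 2. The 2 PAC 4-HT duplicate 1 libraries gave 68.3% (60.0 to 75.9) and 64.3% (54.9 to 73.1), each between the 2 donors' EtOH values, and these are the libraries that held both *Xist* and Y-linked reads. The share also moved with 4-HT within the single donor of AC, from 61.9% and 63.4% to 76.6% and 73.7%. A 4-HT share is therefore not strictly comparable with EtOH values, and a mixture was not tested.

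**Figure D4:**
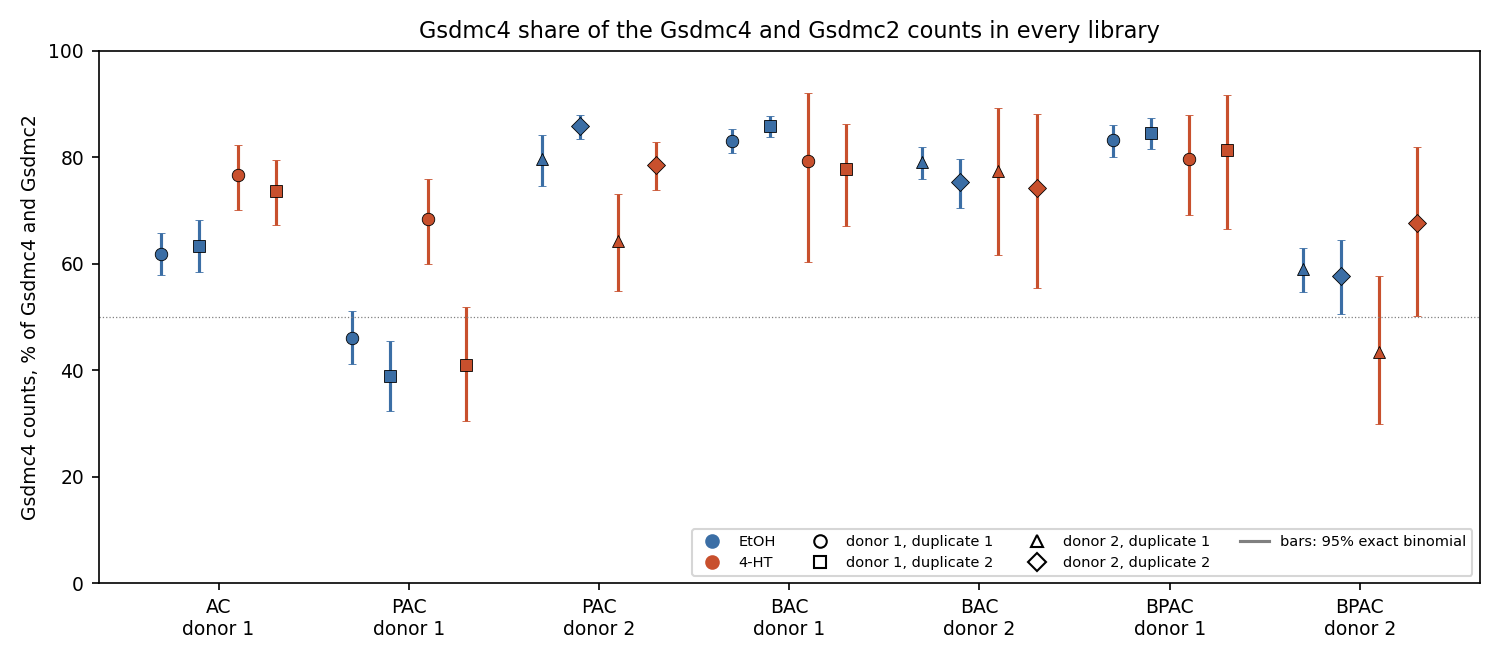
Share of Gsdmc4 in the summed counts of Gsdmc4 and Gsdmc2 (percent) for each sample, by donor and treatment, with 95% exact binomial intervals that cover counting error only. EtOH cultures of PAC donors 1 and 2 lie at 38.8% to 46.1% and 79.7% to 85.8%, and the 2 PAC 4-HT duplicate 1 libraries lie in between.

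The *Trp53* allele, which the choice of the family did not use, was tested for its effect on the 4-HT change by edgeR's quasi-likelihood test. It called 2 genes or 0.0148% of all, and 0 of the 6 members. By edgeR over all cultures 0 of the 6 had an unadjusted p under 0.05 (140 genes did), and limma-voom and DESeq2 also called 0. Between the genotypes with the allele (PAC, BPAC) and without it (AC, BAC) the mean change differed by 0.61 ± 0.46 for *Gsdmc2*, 0.16 ± 0.67 for *Gsdmc4* and 0.01 ± 0.12 for *Gsdmd* on the log2 scale (edgeR, adjusted p = 1.00 for each). The largest values were those of the low rows, 1.66 ± 0.84 for *Gsdmcl-ps* and 0.91 ± 0.70 for *Gsdmc3* (edgeR, adjusted p = 1.00 for each), and *Gsdmcl-ps* had an unadjusted p under 0.05 by limma-voom and with the culture as a block. Without both PAC duplicate 1 cultures edgeR also called 0 of the 6, with 2.22 ± 0.96 for *Gsdmcl-ps* (unadjusted p = 0.0318, adjusted p = 1.00), 0.73 ± 0.69 for *Gsdmc3*, 0.74 ± 0.45 for *Gsdmc2*, 0.22 ± 1.69 for *Gsdmcl2*, 0.13 ± 0.73 for *Gsdmc4* and 0.02 ± 0.14 for *Gsdmd*. For *Gsdmcl2*, at 0 to 5 counts in the 4-HT samples of BAC and BPAC, edgeR gave 0.08 over all cultures, with an F too near 0 for a usable SE. For the same contrast limma-voom gave 0.21 ± 1.02 and DESeq2 −0.03 ± 0.96. With these errors a sizeable difference for a gasdermin C row would not have been detected.

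Before recombination no difference between carriers of an allele and the others was detected for the members. Organoids with the *Braf* allele differed from those without, in their EtOH samples, by −0.06 ± 0.29 for *Gsdmc2* (edgeR, adjusted p = 0.946), by 0.84 ± 0.45 for *Gsdmc4* (adjusted p = 0.345) and by −0.05 ± 0.09 for *Gsdmd* (adjusted p = 0.798), in a contrast that called 4 genes or 0.0296%. For *Gsdmc4* the highest EtOH levels, 40.3 and 39.5 CPM, were those of BAC donor 1, within a range of 4.13 to 40.3 CPM over all cultures. The *Trp53* allele gave −0.28 ± 0.29 for *Gsdmc2*, −0.37 ± 0.44 for *Gsdmc4* and 0.10 ± 0.09 for *Gsdmd* (edgeR, adjusted p = 1.00 for each), in a contrast that called 8 genes or 0.0592%. The low rows gave −0.60 ± 0.40 for *Gsdmc3*, −0.76 ± 0.51 for *Gsdmcl2* and −1.07 ± 0.53 for *Gsdmcl-ps* in this contrast, and −0.62 ± 0.40, 0.67 ± 0.52 and 0.83 ± 0.54 with the *Braf* allele. In both EtOH contrasts over all cultures 0 of the 6 members had an unadjusted p under 0.05 by edgeR or DESeq2, and 0 were called by edgeR, DESeq2 or limma-voom. By limma-voom 1 member, *Gsdmc4*, had an unadjusted p under 0.05 with the *Braf* allele, and 3, *Gsdmc3*, *Gsdmcl2* and *Gsdmcl-ps*, with the *Trp53* allele. Without both PAC duplicate 1 cultures edgeR called 0, but *Gsdmc3* stood at −0.91 ± 0.39 with the *Braf* allele (unadjusted p = 0.0306, adjusted p = 0.153) and *Gsdmcl-ps* at −1.38 ± 0.66 with the *Trp53* allele (unadjusted p = 0.0474, adjusted p = 1.00). These EtOH samples also enter the 4-HT changes above.

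Around the family, 60 counted genes of 7 lists were examined, from the other gasdermins and the proteases that cut them to the regulators of the family. By edgeR at an adjusted p of 0.01, 6 were lower and 1 higher in AC, 16 and 3 in PAC, 26 and 5 in BAC, and 29 and 3 in BPAC. Of all genes, 4.25%, 12.2%, 21.5% and 23.0% were lower and 3.00%, 11.2%, 20.3% and 22.0% higher. The *Braf* contrast called 5 lower, among them *Casp4*, *Nlrp1b*, *Nlrp6* and *Il18*, beside 3.55% of all genes lower, and 1 higher, *Tgfb1*, beside 3.05% higher. These 6 calls take repeat cultures of a donor as independent, and the number was 3 with the counts of each donor summed, 1 in duplicate 2 alone, and 2 when either AC culture was left out. The shares over all genes also stand beside the counts of the single lists that follow. The median log2 fold change of the 60 genes was −0.52 in BPAC, −0.48 in BAC, −0.31 in PAC, −0.25 in AC and −0.17 in the *Braf* contrast. With library size alone 2 were lower and 4 higher in AC, 7 and 9 in PAC, 22 and 11 in BAC, 21 and 10 in BPAC, and 7 and 1 in the *Braf* contrast (all genes: 2.23% lower and 11.2% higher in AC, 5.45% and 25.1% in PAC, 15.3% and 28.7% in BAC, 15.1% and 32.0% in BPAC, 3.80% and 2.01% in the contrast), whereas DESeq2 size factors gave 6 and 1 in AC and 17 and 3 in PAC, close to TMM. With the culture as a block the counts were 14 in AC, 33 in PAC and 15 in the *Braf* contrast, beside 16.4%, 34.9% and 14.0% of all genes called in either direction (7.25%, 23.4% and 6.61% without it). Without both PAC duplicate 1 cultures 0 of the 60 were called in PAC by edgeR, and 22 had an unadjusted p under 0.05. The calls in PAC named below, those with the block included, rest on those cultures, and the block was not fitted without them.

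**Figure D5:**
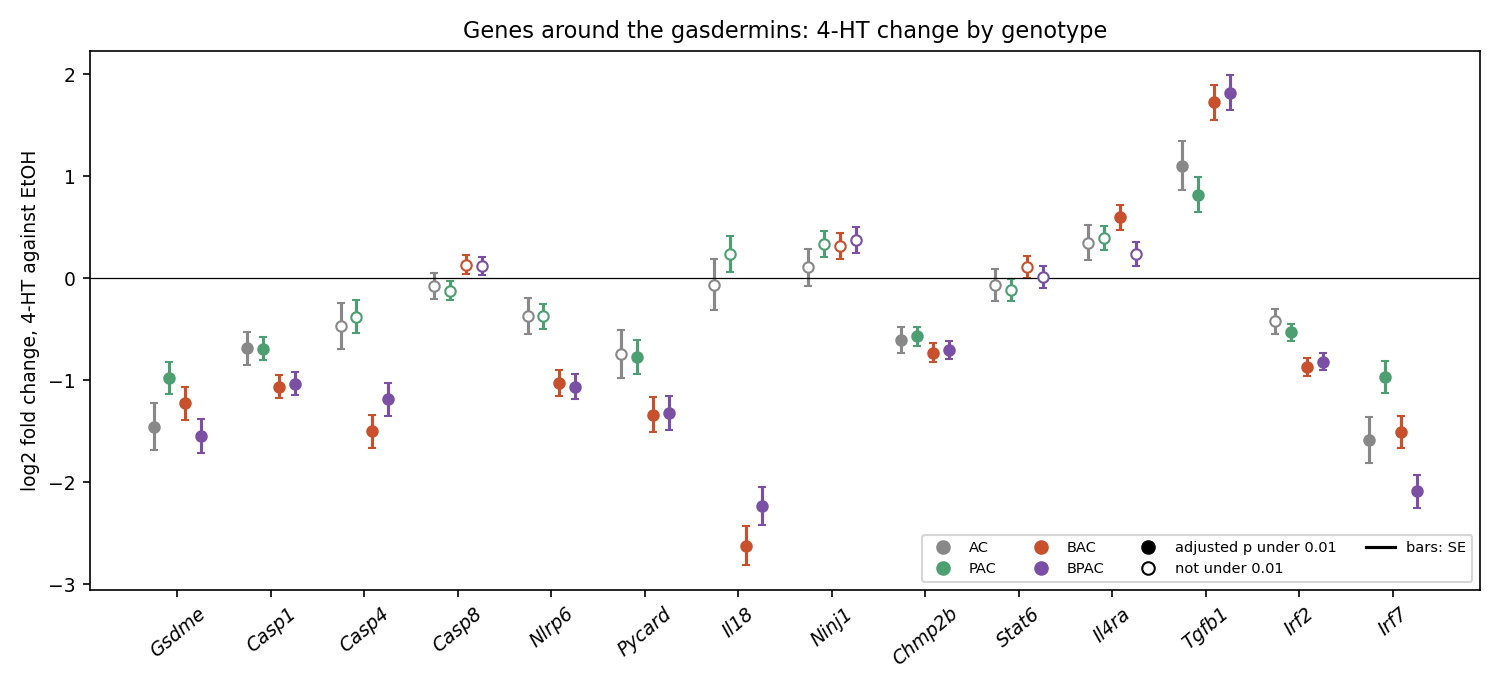
Fitted change from EtOH to 4-HT (log2 fold change, bars for SE) of the named genes of the pathway in each genotype. Il18 lies near 0 in AC and PAC and at −2.62 and −2.23 in BAC and BPAC, whereas Gsdme lies below 0 in all 4.

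Of the other gasdermins, *Gsdma* and *Gsdme* were counted. *Gsdme*, a pore former expressed in many tissues, fell in every genotype, with means of 92.1 to 33.6 CPM in AC, 78.1 to 39.7 in PAC, 55.2 to 23.6 in BAC and 69.9 to 24.0 in BPAC. Its log2 fold changes were −1.45 ± 0.23 (edgeR, adjusted p = 0.000293), −0.98 ± 0.16 (adjusted p = 7.81e-05), −1.22 ± 0.16 (adjusted p = 9.9e-07) and −1.55 ± 0.16 (adjusted p = 2.64e-08). The *Braf* contrast of −0.17 ± 0.18 was not called (adjusted p = 0.573). The p values by genotype, here and below, take repeat cultures of a donor as independent, and those of AC come from a single donor.

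Of the 10 caspases, 4 were lower in BPAC, 5 in BAC and 2 in each of AC and PAC. *Casp1*, the protease of the canonical inflammasome that cuts *Gsdmd*, fell by 0.69 in both AC and PAC, by 1.06 in BAC and by 1.03 where both alleles were present (edgeR, adjusted p = 0.00469, 7.06e-05, 3.83e-08 and 4.43e-08), and its *Braf* contrast of −0.36 was not called (adjusted p = 0.0537). In AC *Casp1* was not called with library size alone. *Casp4*, the sensor of bacterial lipopolysaccharide, went from a mean of 19.9 to 7.01 CPM in BAC and from 18.8 to 8.25 CPM in BPAC, against 21.8 to 15.8 CPM in AC and 22.7 to 17.5 CPM in PAC. It was called in BAC and BPAC, with the block also in PAC (−0.37), and its *Braf* contrast was −0.92 ± 0.18 (adjusted p = 0.00122). *Casp8*, which can cut gasdermin C, was called in no genotype (log2 fold changes −0.08, −0.12, 0.14 and 0.12), but was higher in BAC (0.30) and BPAC (0.34) with library size alone. *Casp2* was higher in both BAC and BPAC, and with library size alone also in AC (0.50) and PAC (0.47). *Casp9* was lower in both with TMM but not with library size alone, and *Casp12* was lower in BAC and, with the block, in the *Braf* contrast (−2.59).

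Among 13 counted genes of inflammasomes and their cytokines, 0 were called in AC (8 had an unadjusted p under 0.05, and limma-voom and DESeq2 also called 0), 5 were lower in PAC, and 10 were lower and 1, *Il33*, was higher in each of BAC and BPAC. *Il18*, a cytokine of the gut epithelium that inflammasomes activate, went from 55.8 to 9.07 CPM in BAC and from 42.4 to 9.01 CPM in BPAC, but from 46.9 to 44.9 CPM in AC and from 35.1 to 41.5 CPM in PAC. Its log2 fold changes were −2.62 ± 0.19 in BAC (edgeR, adjusted p = 2.4e-10), −2.23 ± 0.19 in BPAC (adjusted p = 9.14e-10), −0.06 ± 0.25 in AC and 0.24 ± 0.18 in PAC, with a *Braf* contrast of −2.52 ± 0.20 (adjusted p = 6.85e-08). The sensors *Nlrp6* and *Nlrp1b* had *Braf* contrasts of −0.67 ± 0.14 (adjusted p = 0.00216) and −2.39 ± 0.60 (adjusted p = 0.00819). The adaptor *Pycard* was lower in PAC (−0.77, not called with library size alone), BAC (−1.34) and BPAC (−1.32), and its *Braf* contrast of −0.57 was not called (adjusted p = 0.0399), while with the block both that contrast (adjusted p = 0.0014) and AC (−0.76, adjusted p = 0.000902) were. *Il33*, an alarmin of the type 2 response, was higher in BAC (1.91) and BPAC (1.72). The block added calls in PAC for *Il33* (1.21) and *Nlrp6* (−0.37).

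Some genes of membrane rupture and repair fell in every genotype with TMM. Of 11 counted, 2, 5, 4 and 6 were lower in AC, PAC, BAC and BPAC, with *Chmp2b* and *Chmp3* of the ESCRT-III machinery, which seals membrane wounds, in all 4. The *Braf* contrast called 0 by edgeR, limma-voom and DESeq2, with 1 at an unadjusted p under 0.05 by edgeR. *Ninj1*, which ruptures the plasma membrane late in lytic death, was not called, at 0.11, 0.33, 0.31 and 0.38. With library size alone *Ninj1* was higher in PAC (0.56), BAC (0.48) and BPAC (0.59), and the block called it higher in the same 3 genotypes (0.34, 0.31 and 0.38). With library size alone *Chmp2b* was not called in AC, and *Chmp3* was not called in AC and PAC.

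Among regulators, the 9 counted genes of type 2 cytokine signaling gave few calls. *Stat6*, the transcription factor downstream of the interleukin 4 and 13 receptors, was not called (−0.07, −0.11, 0.11 and 0.01 in AC, PAC, BAC and BPAC). The receptor *Il4ra* was higher by 0.60 in BAC (with library size alone also in PAC, 0.62, and BPAC, 0.45), *Il13ra1* and the kinase *Jak2* were lower in BAC and BPAC with TMM but not with library size alone, and *Retnlb*, a secreted target of this pathway, was higher by 1.30 in PAC. With the block *Il4ra* (0.40), *Il13ra1* (−0.35) and *Jak2* (−0.45) were also called in PAC, and *Retnlb* was called lower in the *Braf* contrast (−1.12). Of 7 genes of TGF-beta signaling, the ligand *Tgfb1* rose in all 4 genotypes, by 1.10, 0.82, 1.72 and 1.82, with a *Braf* contrast of 0.81 ± 0.19 (edgeR, adjusted p = 0.0052). Its receptor *Tgfbr2* was higher by 0.36 in PAC and 0.30 in BAC (with library size alone also in AC, 0.62, and BPAC, 0.46), *Smad7* fell by 0.92 in BPAC, and *Smad3* was not called. With library size alone *Smad7* was not called, and *Smad3* was higher in PAC (0.39) and BAC (0.44). With the block *Smad7* was also lower in PAC (−0.69) and BAC (−0.67), and *Tgfbr2* also higher in BPAC (0.25). Of 8 interferon regulatory factors, 1, 3, 4 and 5 were lower. *Irf7* was lower in all 4 genotypes (−1.58, −0.97, −1.51 and −2.09), and *Irf2* in PAC, BAC and BPAC (−0.53, −0.87 and −0.81), with −0.42 in AC (adjusted p = 0.0187) and a *Braf* contrast of −0.37 (adjusted p = 0.0113). With the block *Irf2* was called in both AC (−0.42) and the *Braf* contrast (−0.37), and *Irf1* in the *Braf* contrast (−0.57).

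Beside the cluster, only *Fam49b* (chromosome 15, 63929097 to 64060478) and *Asap1* (64086857 to 64382919) were counted with a start within 1 Mb of it. *Fam49b* was higher after 4-HT in BAC (0.67) and BPAC (0.62) and had a *Braf* contrast of 0.50 ± 0.10 (edgeR, adjusted p = 0.000985), whereas that of each gasdermin C row was below 0, and was not called in AC (0.19) or PAC (0.09). *Asap1* was lower in PAC (−0.68, adjusted p = 0.000541) and BPAC (−0.54, adjusted p = 0.00164, not called with library size alone) and stood at −0.51 in AC (adjusted p = 0.0715) and −0.43 in BAC (adjusted p = 0.0111, called with the block at 0.00224), and its *Braf* contrast of 0.11 was not called.

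Elsewhere in the genome, the 8 genes whose levels over the 28 samples ran closest to the mean of the gasdermin C rows were *Adora2b*, *Mep1a*, *Aoc1*, *Abcc6*, *Ctss*, *Cyp2d10*, *Lypd8* and *Olfr165*. The measure was the root mean square difference of centred log2 CPM, which ran from 0.645 for *Adora2b* to 0.717 for *Olfr165*, with a median of 1.57 over all genes. The members themselves stood at 0.486 for *Gsdmc2*, 0.574 for *Gsdmcl2*, 0.605 for *Gsdmc4*, 0.623 for *Gsdmc3*, 0.972 for *Gsdmcl-ps* and 1.41 for *Gsdmd*. *Adora2b*, an adenosine receptor, went from 4.53 to 0.376 CPM in BAC and from 7.08 to 1.39 CPM in AC, and *Mep1a*, a brush border protease, from 171 to 22.9 CPM in BAC and from 216 to 63.5 CPM in AC. The *Braf* difference in the 4-HT change of these 8 genes ran from −2.30 for *Olfr165* to −1.19 for *Aoc1*, all below 0 as for the gasdermin C rows, and 7 of the 8, all but *Olfr165*, were called by edgeR beside 3.55% of all genes. The profile of the family includes its 4-HT changes, so that this likeness is a description.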

How the data were processed

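The deposited values are unnormalized whole-number counts per gene that the authors made from reads trimmed with Trimmomatic 0.39 and aligned with STAR 2.5.2b to GRCm38/mm10, per the labels. The counting program, its annotation and its use of strand are not given in the sources used here. A symbol was matched for 13479 of 13519 genes.

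After TMM normalization, edgeR 4.0.16 under R 4.3.3 (glmQLFit, glmQLFTest) was fitted to the 8 groups of genotype and treatment, with p values adjusted over all genes by the Benjamini-Hochberg method and a threshold of 0.01. An SE is the absolute log2 fold change divided by the square root of F. CPM and RPKM use library sizes scaled by TMM, and changes by culture use log2 CPM with a prior count of 2. Alternatives included limma-voom (limma 3.58.1) and DESeq2 1.42.0. Coding windows came from the transcripts and annotation of GRCm38 (Biopython 1.88).

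EtOH and 4-HT samples of a culture share a donor by their labels, and their deviations from the group means correlated in all 14 cultures (r 0.245 to 0.532), so the fit with the culture as a replicate block is given where it changes a call of a member or of a pathway gene the text names. For the PAC duplicate 1 cultures that pairing is in doubt, since their 4-HT libraries held both *Xist* and Y-linked transcripts. A 4-HT sample whose label lacks the duplicate number was counted as duplicate 1, since duplicate 2 of its donor is labelled. The members and gene lists were chosen with earlier results of these data known. Genes named were the members, set genes of each list with up to 4 more of the largest change, the 8 genes most like the family, and counted genes within 1 Mb. Some genes of the lists enter the counts and are not reported here by name. Depth was 20577276 to 40068718 counts per sample.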

Additional observations from a re-analysis of the deposited data

Results flagged for a closer look

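In groups of 4 samples, a value whose gap to its nearest neighbour took up most of the range was marked, by Dixon's 95% critical value, in 4 of 54 groups, and chance marks about 1 group in 20. *Gsdmc4* in the BAC 4-HT sample of donor 1 duplicate 2 stood at 2.21 CPM against 0.591, 0.732 and 0.781 CPM in the others, still below every EtOH sample. *Gsdmcl2* in the PAC EtOH sample of donor 2 duplicate 2 stood at 2.02 CPM against 0.427, 0.601 and 0.645 CPM, and *Gsdmd* in the same sample at 106.9 CPM against 89.1, 90.9 and 90.9 CPM. The *Gsdmd* change of BAC donor 2 duplicate 2 was −0.043 against −0.23, −0.21 and −0.20 in the other cultures, on the log2 scale.

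Of the 60 counted genes of the pathway, 6 were called for a 4-HT change that differed with the *Braf* allele, by edgeR's test of the difference. This contrast called 6.61% of all genes. Among the 6 were *Il18* (−2.52, adjusted p = 6.85e-08), *Casp4* (−0.92, adjusted p = 0.00122), *Nlrp6* (−0.67, adjusted p = 0.00216), *Tgfb1* (0.81, adjusted p = 0.0052) and *Nlrp1b* (−2.39, adjusted p = 0.00819). These values take repeat cultures of a donor as independent, and 3 genes were called with the counts of each donor summed and 2 when either AC culture was left out.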

How the results depend on the processing

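Every alternative kept the sign of the 4-HT change and of the *Braf* difference of each gasdermin C row, except *Gsdmcl-ps* in PAC (−0.20 to 1.97 over 25 alternatives). *Gsdmc4* ranged from −5.56 to −4.16 in BAC, from −4.41 to −3.75 in BPAC and from −3.42 to −2.67 in the *Braf* difference, and that of *Gsdmc2* from −2.51 to −1.98. The numbers called moved more, and the cause was not tested. Members called in the *Braf* difference, 3 as reported, were 1 by limma-voom, 0 with the counts of each donor summed, 0 in duplicate 2 alone and 0 to 3 with 1 culture left out. In AC, 0 as reported, they were 1 by limma-voom, 1 by DESeq2, 1 with a mean of at least 50 counts, 1 without both PAC duplicate 1 cultures, 2 with the replicate block, 2 at a threshold of 0.05, and 0 to 1 with 1 culture left out. In PAC, 2 as reported, they were 1 by limma-voom, 1 with a mean of at least 50 counts, 0 with each genotype fitted alone, 0 without both duplicate 1 cultures, 0 in either duplicate alone, and 0 to 2 with 1 culture left out (0 without either donor 1 culture). In BAC, 5 as reported, and BPAC, 6 as reported, they were 2 and 3 with a mean of at least 50 counts, which leaves *Gsdmc2*, *Gsdmc4* and *Gsdmd* in the table, 2 and 2 in duplicate 2 alone, and 4 to 5 and 5 to 6 with 1 culture left out. The *Trp53* and EtOH contrasts called 0 throughout. Where the share of all genes called under a setting is given above, it moved as well, and nothing about the members is read from these numbers.

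Pathway genes called in AC, 7 as reported, were 14 with the replicate block, 2 with each genotype fitted alone, 11 and 0 in duplicates 1 and 2 alone, 13 at 0.05, and 0 to 8 with 1 culture left out (0 without either AC culture). In PAC, 19 as reported, they were 33 with the replicate block, 0 without both duplicate 1 cultures, 0 in duplicate 2 alone, 31 at 0.05, and 12 to 22 with 1 culture left out (12 without donor 2 duplicate 1). In BAC (31) and BPAC (32) they were 20 and 18 in duplicate 2 alone, and 26 to 33 and 24 to 33 with 1 culture left out. In the *Braf* difference, 6 as reported, they were 10 by DESeq2, 15 with the replicate block, 3 with donors summed, 1 in duplicate 2 alone, 13 at 0.05, and 2 to 10 with 1 culture left out (2 without either AC culture, 3 and 10 without BPAC donor 1 duplicate 1 and 2). With the block the share of all genes called also rose, from 7.25% to 16.4% in AC, from 23.4% to 34.9% in PAC and from 6.61% to 14.0% in the *Braf* difference. Without both PAC duplicate 1 cultures the genes called in PAC went from 3166 to 48. For the other settings of this paragraph the share is not given, and nothing about the pathway is read from these numbers.

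Small differences that were not called changed sign. The *Trp53* effect was −0.20 for *Gsdmc4* and −0.0864 for *Gsdmd* in duplicate 2 alone, with −0.0461 to 0.36 and −0.101 to 0.127 when 1 culture was left out. The *Braf* difference at EtOH was 0.167 for *Gsdmc2* and 0.0292 for *Gsdmd* in duplicate 1 alone, with −0.28 to 0.116 and −0.0888 to 0.0033 when 1 culture was left out. The replicate block changed no other call of a member.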
